A study of Mus musculus with 8 samples.

Results

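Glycolysis breaks glucose down to pyruvate through a chain of cytosolic enzymes, and lactate dehydrogenase can then turn the pyruvate into lactate. Haematopoietic stem cells, the self-renewing cells of the bone marrow from which blood cells arise, are known for relying on this route while they rest in a marrow poor in oxygen, and the factor HIF-1 is known to raise transcription of many of its enzyme genes. The genes described here are 10 enzyme genes of that chain, taken by symbol from hexokinase to lactate dehydrogenase: Hk1, Hk2, Gpi1, Pfkl, Aldoa, Pgk1, Pgam1, Eno1, Pkm and Ldha. All 10 symbols were among the 24222 listed in each count table, and 9 of them had enough reads to be tested, Eno1 being the exception.

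The libraries came from haematopoietic stem cells sorted from the marrow of 4 Kdm4a/b/c triple knockout (KO) mice and of 4 wild-type control (WT) mice, all on a C57BL6 background. The design text places the sort at 2 weeks after the knockout was induced, and each mouse gave 1 library. Kdm4a, Kdm4b and Kdm4c encode demethylases that remove methyl groups from lysines of histone H3, and the comparison asks how RNA levels differ after their loss. The sources used here do not give how the knockout was induced, the exons deleted, the sort markers or the age of the mice.

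Library totals ran from 5541504 to 14872493 counts in KO mice and from 3594315 to 6044289 counts in WT mice, KO mouse 3 being the deepest. RNA of the targeted gene Kdm4c was at 35.9 ± 10.6 CPM in KO libraries and 115 ± 22.7 CPM in WT libraries (SD, n = 4 each), where CPM is the usual depth-scaled count unit, here with library totals adjusted by edgeR's TMM factors. For Kdm4a and Kdm4b, too, the highest KO level lay below the lowest WT level, as it did for 2.93% of all genes tested. Of 11498 genes tested, edgeR's quasi-likelihood test with Benjamini-Hochberg adjustment called 67 at the 0.05 level (0.583%). Kdm4c was among them (edgeR adjusted p = 2.06e-05). Kdm4a (fold 0.549, edgeR adjusted p = 0.132) and Kdm4b (fold 0.378, edgeR adjusted p = 0.142) did not pass. The stem cell label was checked on 10 marker genes, all of them detected, whose summed level was 3234 to 3602 CPM in KO libraries and 3901 to 4156 CPM in WT libraries, so that the groups did not overlap.

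The 10 genes together took 0.124% to 0.17% of KO counts and 0.123% to 0.149% of WT counts, and a single gene supplied most of that. Ldha, the lactate dehydrogenase subunit that favours making lactate from pyruvate, stands on chromosome 7 from 46841475 to 46855627 on the plus strand (mm10). Per kilobase of exon it was at 286 ± 45.8 CPM in KO libraries and 219.97 ± 32.4 CPM in WT libraries (SD, n = 4 each). That was 7.12 times the mean level per kilobase of the next gene, with Ldha higher in all 8 libraries, and 4.199 times when only 50-base windows not shared with other genes were counted as length, where Pgk1 came next.

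The promoters of Ldha and Hk2 are shown because these were the members with the highest and the lowest fitted change between KO and WT. Each line holds the 250 bases before the first start site that RefSeq lists (build GRCm38.p6), read 5′ to 3′ along the gene's strand. The capitals mark ACGTG, the core of the hypoxia response element to which HIF-1 is known to bind, or CACGT, the same motif on the other strand.
Ldha, chr7:46845554-46845803, plus strand: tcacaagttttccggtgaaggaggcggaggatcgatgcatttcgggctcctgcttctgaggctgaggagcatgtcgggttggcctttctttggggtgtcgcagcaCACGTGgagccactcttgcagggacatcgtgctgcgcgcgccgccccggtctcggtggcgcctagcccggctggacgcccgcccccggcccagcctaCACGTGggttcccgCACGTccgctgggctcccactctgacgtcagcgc
Hk2, chr6:82774455-82774704, minus strand: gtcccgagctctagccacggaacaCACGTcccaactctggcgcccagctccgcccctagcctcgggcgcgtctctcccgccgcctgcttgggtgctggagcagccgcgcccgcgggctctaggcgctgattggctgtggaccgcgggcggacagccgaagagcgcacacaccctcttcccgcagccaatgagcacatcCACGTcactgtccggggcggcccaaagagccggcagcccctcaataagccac
The Ldha stretch holds 3 such runs and the Hk2 stretch 2. In 2 of the Ldha runs the motif and its complement overlap as CACGTG. All 10 members matched a RefSeq promoter, with 17 windows of 300 bases between them, and 7 members held ACGTG on either strand in at least 1 window. Gpi1, Pfkl and Eno1 held none. Over all 27025 genes with a promoter in the table, 21.8% held it, and 8.09% held CACGTG, which among the members was found in Ldha alone. Genes with more windows have more places for a match. Counted by window, 8 of the 17 member windows held ACGTG, against 19.6% of all 32851 windows. A match is a run of letters and does not show that a factor bound there.

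The order of the genes by level per kilobase, averaged over the 8 libraries, was Ldha, Aldoa, Pgk1, Pkm, Gpi1, Hk1, Hk2, Pfkl, Pgam1 and Eno1. Aldoa, which encodes the aldolase that splits the sugar bisphosphate, was at 33.8 ± 6.97 CPM per kilobase in KO and 37.3 ± 9.11 in WT. Pgk1, the phosphoglycerate kinase of the first ATP-yielding step, was at 34.5 ± 3.89 and 34.2 ± 7.25 CPM per kilobase in KO and WT (SD, n = 4 each), and it lay below Aldoa in 4 of 8 libraries, so these neighbours were not told apart. Pkm, pyruvate kinase, followed at 21.1 ± 1.96 CPM per kilobase in KO and 22.6 ± 2.52 in WT, below Pgk1 in all 8 libraries and with ranges apart in both genotypes. The order of these 3 rests on the length used: Pkm stood above Pgk1 by the longest transcript, and Pgk1 above Aldoa by unshared windows. Gpi1, which converts glucose 6-phosphate to fructose 6-phosphate, was at 14.5 ± 2.26 CPM per kilobase in KO and 14.2 ± 2.75 in WT.

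Taken singly, the members Hk1, Hk2 and Pfkl of the ATP-spending steps at the head of the chain had lower levels per kilobase than Aldoa, Pgk1, Pkm or Ldha. Other isozymes of those steps were left out of this comparison. Hk1 and Hk2 encode hexokinases, which trap glucose in the cell as glucose 6-phosphate. Hk1 was at 11.7 ± 1.53 CPM per kilobase in KO and 13.7 ± 0.748 in WT, and Hk2 at 8.90 ± 1.88 in KO and 11.6 ± 2.66 in WT. Gpi1, Hk1 and Hk2 each overlapped their neighbour in this order, the higher of each pair being so in 6 of 8 libraries. Pfkl, an isozyme of phosphofructokinase, the main point of control of the chain, was at 5.48 ± 1.91 CPM per kilobase in KO and 5.13 ± 0.661 in WT. By this length it lay below Hk2 in all 8 libraries, but the gap depends on the length used. Averaged over the 8 libraries, Hk2 and Pfkl were at 10.2 and 5.30 CPM per kilobase of exon. With unshared windows as length they were at 11.2 and 9.62.

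Pgam1 and Eno1, the mutase and the enolase that work side by side late in the chain, had the fewest reads. Eno1 (chromosome 4, 150236721 to 150248879, plus strand) had 1, 1, 0 and 0 counts in KO mice 1 to 4, against 0, 0, 9 and 0 in WT mice 1 to 4. Apart from WT mouse 3, no library passed the floor of 3 counts, so that no change in Eno1 could be measured. Pgam1 (chromosome 19, 41911923 to 41918660, plus strand) had 34, 29, 40 and 20 counts in KO mice 1 to 4 and 13, 21, 9 and 29 counts in WT mice 1 to 4.

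Both genes have near-identical copies elsewhere in the genome. Of the 50-base windows of the longest coding transcript of Eno1, 72.2% also occurred in the transcript of another gene, 70.5% in that of Eno1b, a protein-coding copy, which itself had at most 3 counts in any library. For Pgam1 the share was 41.5%, all of it also covered by the processed pseudogene Pgam1-ps2. The first 90 bases of the longest coding exon of Pgam1 are shown because they are identical, base for base, in that pseudogene, so that a read from within them has more than 1 place of origin.
Pgam1, chr19:41915605-41915694, plus strand, and Pgam1-ps2, chr7:27470307-27470396, minus strand: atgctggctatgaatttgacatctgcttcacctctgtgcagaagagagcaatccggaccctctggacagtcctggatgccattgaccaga
The sources used here do not say how reads with several places of origin were counted, and the part of shared sequence in these low counts was not tested. Pgk1 shared 68.0% of its windows, with 274 to 1307 counts a library, and Gapdh, the dehydrogenase between aldolase and Pgk1 in the chain, shared 82.5%, with 667 to 6138 counts. Levels per kilobase of the genes with shared sequence are therefore uncertain, while a comparison of KO with WT for 1 gene uses the same sequence on both sides.

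**Figure D1:**
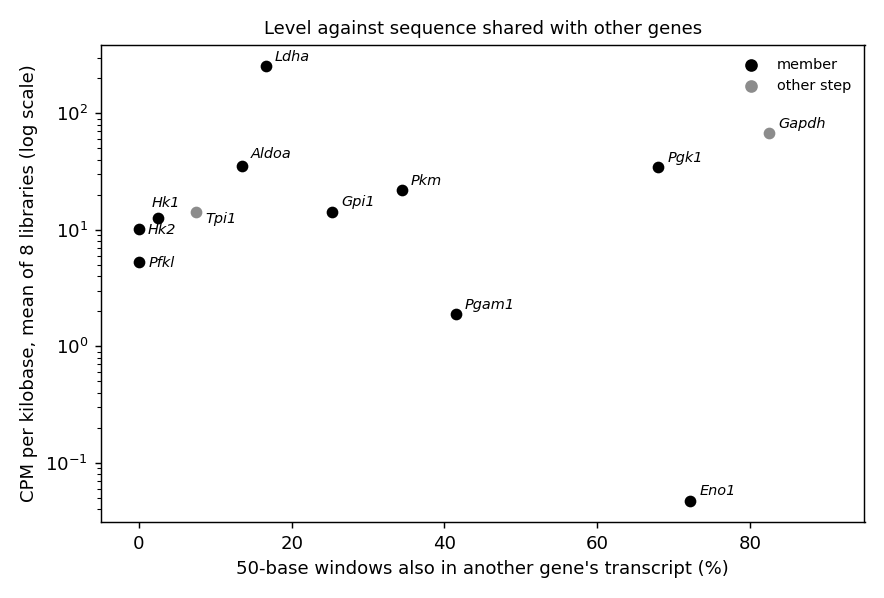
Level (CPM per kilobase of exon, mean of 8 libraries, log scale) against the percentage of 50-base windows of the longest coding transcript that also occur in another gene's transcript, for the 10 members (black) and for Tpi1 and Gapdh (grey). Eno1, at 72.2%, lies lowest, Pgam1, at 41.5%, is next lowest, and Pgk1 and Gapdh, at 68.0% and 82.5%, lie higher.

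Loss of Kdm4a/b/c was not followed by a change in any member that passed edgeR's test over all genes: 0 of 9 were called, against 0.583% of all genes tested (0.252% higher and 0.33% lower in KO). DESeq2 and limma voom also called 0. At an unadjusted p under 0.05, 1 of the 9 was higher and 0 lower, where 11.2% of all genes had such a p, 5.75% higher and 5.45% lower in KO. The median log2 fold change of the 9 was 0.02, beside 0.002 over all genes, with 5 folds above 1 and 4 below. The KO and WT libraries overlapped for each of the 9, while they did not for 5.82% of all genes (2.89% with KO above WT and 2.93% with KO below).

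**Figure D2:**
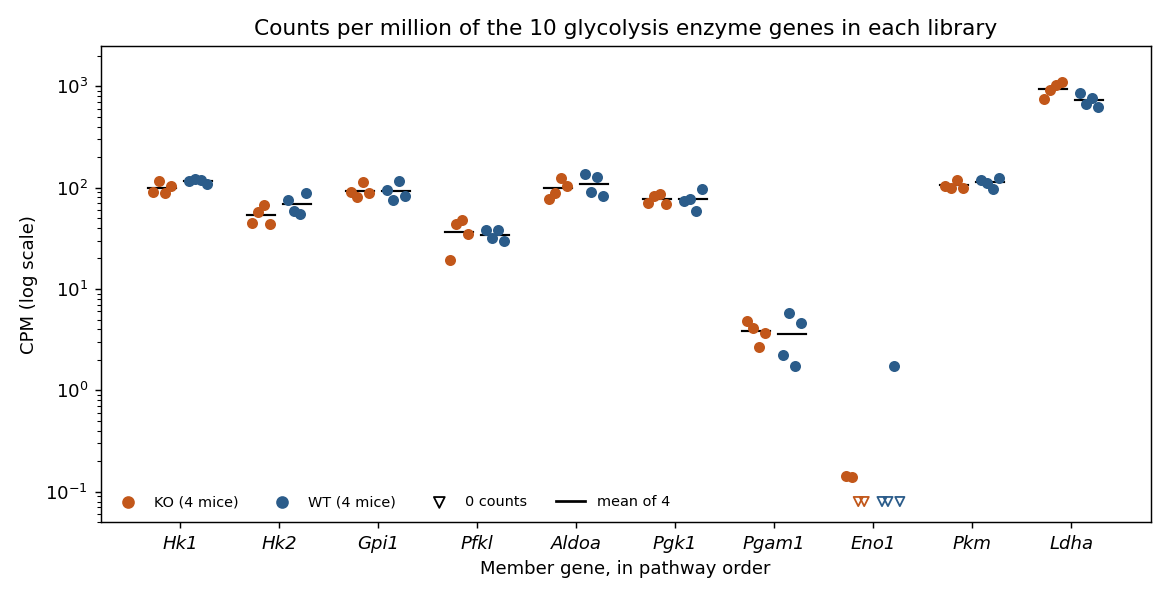
CPM (log scale) of each of the 10 genes in each library, in pathway order, with KO mice to the left of WT mice for each gene, 1 point a mouse, a bar at the mean of 4 except for Eno1, and open triangles for 0 counts. Ldha stands at 623 to 1094 CPM, 7 genes between 19.3 and 136 CPM, and Pgam1 and Eno1 far below.

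Both hexokinase genes had lower mean levels in KO, without passing the test. Hk1 (chromosome 10, 62268855 to 62379908, minus strand) was at 90.3, 116, 87.9 and 104 CPM in KO mice 1 to 4, against 117, 123, 120.2 and 108 CPM in WT mice 1 to 4. KO mouse 2 alone lay within the WT range, and the other 3 lay below every WT mouse. The fitted fold was 0.846 (95% interval 0.684 to 1.05, edgeR adjusted p = 0.587), and the exact two-sided permutation p was 0.0571, where 0.0286 is the smallest that 4 against 4 libraries can give. Hk2 (chromosome 6, 82725025 to 82774454, minus strand) was at 44.5, 57.2, 67.1 and 43.7 CPM in KO mice, against 74.9, 58.3, 54.5 and 89.0 CPM in WT mice. The Hk2 libraries overlapped, KO mice 2 and 3 lying above WT mouse 3, and the fold was 0.777 (95% interval 0.586 to 1.03, edgeR adjusted p = 0.505).

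Hk3, a hexokinase known mainly from myeloid cells, was the isozyme gene whose libraries did not overlap. It was at 2.28, 8.33, 8.80 and 7.78 CPM in KO mice 1 to 4, against 18.5, 10.9, 20.5 and 9.17 CPM in WT mice 1 to 4. The fold was 0.48 (95% interval 0.277 to 0.832), and the gene did not pass over all genes (edgeR adjusted p = 0.27). Summed markers of neutrophils and monocytes were at 228 to 254 CPM in KO libraries and 189 to 243 CPM in WT libraries, and these ranges overlap. Most of that sum was Lyz2, at 189 ± 26.6 CPM in KO and 170 ± 30.9 CPM in WT. Of 6 such markers tested, 4 folds were above 1 and 2 below, and 0 passed. The part of neutrophils and monocytes in the Hk3 levels was not tested.

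The middle of the chain showed no separation. Gpi1 (chromosome 7, 34201330 to 34230336, minus strand) ran from 80.1 to 114 CPM in KO and from 75.3 to 116 CPM in WT, a fold of 1.03 (95% interval 0.806 to 1.31). An antisense gene, Gm26762, overlaps 11.5% of its exon bases, and the sources used here do not say whether reads were counted by strand. Aldoa (chromosome 7, 126795234 to 126800751, minus strand) ran from 77.9 to 125 CPM in KO and from 81.8 to 136 CPM in WT, a fold of 0.913 (0.705 to 1.18). Pgk1 (chromosome X, 106187100 to 106203699, plus strand) ran from 69.1 to 87.2 CPM in KO and from 58.4 to 98.0 CPM in WT, a fold of 1.01 (0.788 to 1.3). For these 3 genes the edgeR adjusted p lay between 0.859 and 0.984.

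Pfkl (chromosome 10, 77986947 to 78010083, minus strand) varied more among KO mice than among WT mice. It was at 19.3, 43.8, 48.2 and 35.0 CPM in KO mice 1 to 4, against 37.9, 31.5, 38.1 and 29.5 CPM in WT mice 1 to 4. KO mouse 1 was the lowest of the 8 libraries and KO mice 2 and 3 the highest. The fold was 1.1 (95% interval 0.772 to 1.57, edgeR adjusted p = 0.903). Pgam1 was at 3.83 ± 0.909 CPM in KO and 3.63 ± 1.95 CPM in WT (SD, n = 4 each), with a 95% interval of 0.491-fold to 2.17-fold that its few reads leave wide. Pkm (chromosome 9, 59656368 to 59679375, plus strand) ran from 98.7 to 119.96 CPM in KO and from 96.7 to 126 CPM in WT, a fold of 0.937 (0.759 to 1.16). The counts sum over the whole gene, so the M1 and M2 splice forms of pyruvate kinase were not told apart.

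Ldha was the member with the smallest p. It was at 749.6, 911, 1033 and 1094 CPM in KO mice 1 to 4, against 860.4, 661, 768 and 623 CPM in WT mice 1 to 4. KO mice 2 to 4 lay above every WT mouse, and KO mouse 1 lay below WT mice 1 and 3. The fold was 1.3 (95% interval 1.1 to 1.54) and the unadjusted p 0.00414, which ranked 255 of 11498 genes and did not pass over all of them (edgeR adjusted p = 0.186). Over the 16 alternative settings the Ldha fold stayed above 1, and the adjusted p ran from 0.0237, without a filter on low counts, to 0.443. The exact two-sided permutation p was 0.0857.

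Set against the other 9 members within each library, a ratio that no scaling of library totals can move, the share of Ldha separated the genotypes. It made up 59.9%, 61.4%, 61.3% and 66.8% of the counts of the 10 genes in KO mice 1 to 4, against 56.7%, 53.6%, 55.6% and 50.2% in WT mice 1 to 4. Every KO mouse was above every WT mouse. Such a share also moves with the other 9 genes. KO mouse 1 had less Ldha in CPM than WT mice 1 and 3, and its 10 genes summed to 1252 CPM, against 1516 and 1381 CPM in those mice. As a share of lactate dehydrogenase RNA per kilobase, Ldha overlapped, at 81.0% to 91.1% in KO and 81.9% to 88.0% in WT. The ratio to the 10 genes was chosen after the values were seen and is given without a test.

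**Figure D3:**
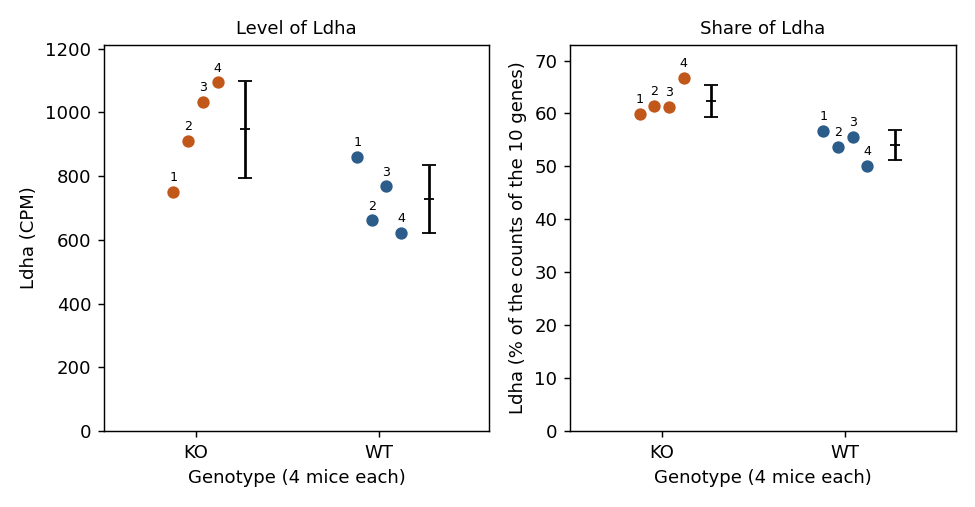
Ldha in each mouse, KO to the left of WT, as CPM (left panel) and as the percentage of the counts of the 10 genes (right panel), with the mouse number above each point and the mean ± SD of 4 beside it. In CPM the groups overlap through KO mouse 1 at 749.6 CPM. As a share they lie apart, at 59.9% to 66.8% in KO and 50.2% to 56.7% in WT.

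Summed levels of other gene groups also differed between the libraries. All 15 mitotic genes listed were detected, and their sum was 4375 to 6198 CPM in KO and 3503 to 4656 CPM in WT, with KO mouse 1 highest. These ranges overlap. Of the 15 mitotic genes, 14 folds were above 1 and 1 below, and 0 passed by edgeR. The 8 megakaryocyte markers summed to 299.99 to 318 CPM in KO and 175 to 231 CPM in WT. Gp6 had at most 1 count in any library. Of the 7 tested, 6 folds were above 1. By edgeR, Gp1ba (adjusted p = 0.00128) and Itga2b (adjusted p = 0.00737) were called higher in KO. Pf4 was lower in KO, at 49.1 ± 8.30 CPM against 65.9 ± 9.89 CPM in WT, without passing. Of 11 macrophage and dendritic cell markers 10 were listed, 1 of them at 0 throughout (Siglech). Their sum was 201 to 270.2 CPM in KO and 92.0 to 194 CPM in WT. The members of that list moved in opposite directions. By edgeR, Cd68 (19.8 ± 4.17 CPM in KO and 6.56 ± 3.30 CPM in WT) and Cd74 (86.3 ± 22.4 CPM in KO and 36.9 ± 19.0 CPM in WT) were called higher in KO, and Mrc1 (0.986 ± 0.601 CPM in KO and 6.08 ± 3.95 CPM in WT, adjusted p = 0.0198) was called lower. Vcam1 was at 2.68 ± 0.602 CPM in KO and 7.73 ± 1.62 CPM in WT, without passing. Its libraries did not overlap, as for 2.93% of all genes tested with KO below WT. Of 10 erythroid markers the 4 haemoglobin symbols were at 0 in every library, and the sum was 13.1 to 25.4 CPM in KO and 19.96 to 40.1 CPM in WT. Lymphoid markers were at 16.1 to 24.7 CPM in KO and 14.5 to 21.1 CPM in WT, and stromal markers at 49.4 to 76.9 and 52.1 to 76.6 CPM in KO and WT. In the lists without a called gene, the smallest edgeR p was that of Ckap2l (mitotic, adjusted p = 0.0682), Ly6a (stem cell, 0.0967) and Car1 (erythroid, 0.132). For neutrophils and monocytes it was Prtn3 (0.469), for stroma Pdgfrb (0.572) and for lymphoid cells Klrb1c (0.942). The part of any of these groups in the levels of Ldha or the other members was not tested. In sorted bulk samples a change in the mix of cells and a change in RNA per cell cannot be told apart.

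**Figure D4:**
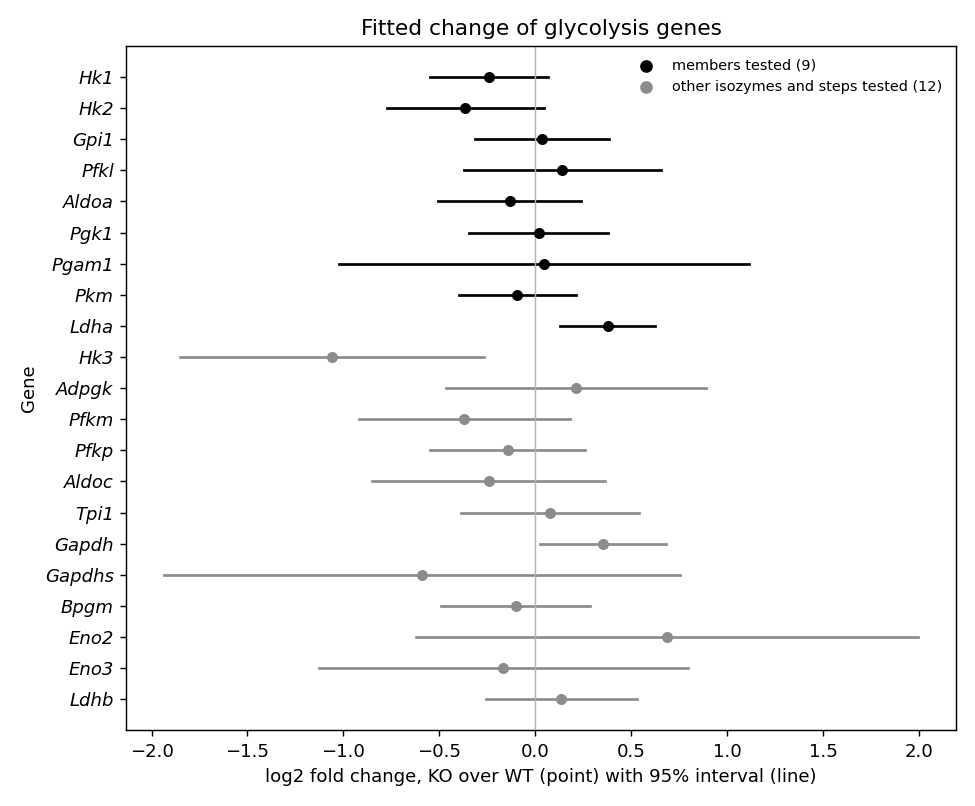
Fitted log2 fold change of KO over WT (points) with 95% intervals (lines) for the 9 members tested (black) and the 12 other isozymes and steps tested (grey). Among the members, the interval of Ldha lies above 0 and the other 8 cross it. Among the others that of Hk3 lies below 0 and that of Gapdh above it.

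Several steps are served by more than 1 isozyme, and none of the 5 isozyme shares tested passed an exact two-sided permutation test over the 8 libraries, with adjusted p over the 5 between 0.857 and 1. A single share with the genotypes fully apart could have reached no less than 0.143 after this adjustment, so the test could not have called it. Hk1 made up 52.4 ± 6.39% of the hexokinase RNA per kilobase in KO and 47.0 ± 4.99% in WT (SD, n = 4 each). Hk2 made up 39.6 ± 5.49% in KO and 39.3 ± 7.61% in WT, and Hk3 7.998 ± 3.15% in KO and 13.7 ± 4.998% in WT. Phosphofructokinase RNA was spread over 3 genes. Pfkl carried 18.03%, 45.2%, 41.8% and 37.1% of it in KO mice 1 to 4, against 32.6%, 28.5%, 30.0% and 26.3% in WT mice 1 to 4. KO mouse 1 was below every WT mouse and the other 3 KO mice were above every WT mouse. Pfkm, known as the muscle isozyme, carried 40.5 ± 14.1% in KO and 47.8 ± 3.52% in WT, and Pfkp, known as the platelet isozyme, 23.95 ± 7.003% in KO and 22.8 ± 3.51% in WT.

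Aldoa carried 83.3 ± 6.98% of the aldolase RNA per kilobase in KO and 82.1 ± 8.20% in WT, and Aldoc 16.5 ± 6.798% in KO and 17.9 ± 8.20% in WT. Ldha carried 86.3 ± 4.12% of the lactate dehydrogenase RNA in KO and 84.7 ± 3.09% in WT, and nearly all of the rest was Ldhb, the subunit of the heart form of the enzyme. Of the enolase RNA, Eno3, known from muscle, carried 77.0 ± 12.2% in KO and 82.2 ± 8.01% in WT, at only 3.99 ± 1.24 CPM in KO and 4.59 ± 2.00 CPM in WT. This share was not tested, since Eno1 had almost no counts and most of its sequence is shared.

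**Figure D5:**
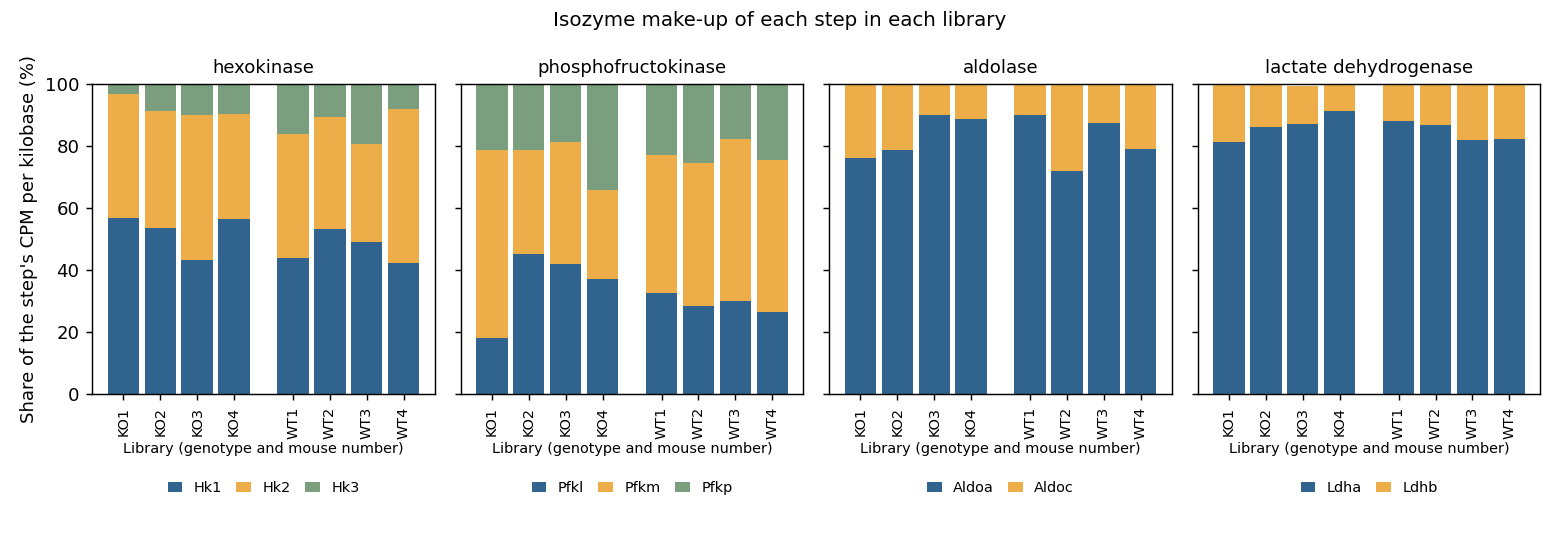
Percentage of the RNA of a step, per kilobase of exon, carried by each isozyme in hexokinase, phosphofructokinase, aldolase and lactate dehydrogenase, as 1 stacked bar a library, KO to the left of WT; genes under 1% in every library are not drawn. Hk1 and Hk2 make up most of the hexokinase RNA, 3 genes share phosphofructokinase, and Aldoa and Ldha carry over 80% of theirs on average in both genotypes.

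Of 19 other isozymes and steps of the chain, 12 were tested and 0 passed by edgeR, with 1 at an unadjusted p under 0.05 in each direction. The higher one was Gapdh, at 312 ± 69.0 CPM in KO and 244 ± 59.2 CPM in WT (log2 fold change 0.35, SE 0.159, edgeR adjusted p = 0.398), and the lower one was Hk3. Tpi1, which interconverts the triose phosphates, was at 39.7 ± 11.8 CPM in KO and 38.6 ± 2.03 CPM in WT. Bpgm, which makes 2,3-bisphosphoglycerate in red cells, was at 63.9 ± 15.3 CPM in KO and 69.7 ± 9.11 CPM in WT, and Ldhb at 68.3 ± 13.2 CPM in KO and 62.0 ± 13.8 CPM in WT. The log2 fold changes of the others tested were 0.21 for Adpgk, -0.37 for Pfkm, -0.14 for Pfkp, -0.24 for Aldoc, -0.59 for Gapdhs, 0.69 for Eno2 and -0.17 for Eno3. Over the alternative settings Gapdhs ran from -0.84 to 0.19 and Eno2 from -0.02, the value without KO mouse 1, to 1.01, and the signs of Adpgk, Tpi1, Bpgm and Eno3 also turned in at least 1 setting. Pgk2 had 0 counts in every library, and Hkdc1, Pgam2, Pklr and Ldhc had too few to test.

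The wider pathway was described over 9 lists with 88 genes in the count tables, of which 65 were tested. By edgeR, DESeq2 and limma voom 0 passed, with 3 higher and 3 lower at an unadjusted p under 0.05 by edgeR, and 25 folds above 1 against 40 below. Over all genes tested, 11.2% had such a p, and 5772 folds were above 1 and 5726 below. Of the glucose and lactate transporters 6 of 9 were tested, with a median log2 fold change of -0.12. The smallest p among them was that of Slc16a7, a carrier of lactate and pyruvate, at 15.8 ± 4.11 CPM in KO and 27.8 ± 9.44 CPM in WT (edgeR adjusted p = 0.287). The medians were -0.17 over 9 genes that set the flux, such as the kinases that make fructose 2,6-bisphosphate or switch off pyruvate dehydrogenase, -0.03 over 6 of pyruvate entry into mitochondria, 0.04 over 3 of gluconeogenesis and -0.0003 over 7 of the pentose phosphate route. The genes with the smallest p in these lists were Pfkfb4, Dld, Fbp1 and Pgd, with edgeR adjusted p between 0.642 and 0.844.

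Regulators known to act on glycolytic genes were measured in all 13 cases and 0 passed, with a median log2 fold change of -0.11. Max, the partner with which MYC proteins bind E-box DNA, was at 524 ± 90.3 CPM in KO and 396 ± 72.1 CPM in WT (log2 fold change 0.40, SE 0.132, edgeR adjusted p = 0.206). Mycn, a MYC family member, was at 145 ± 29.5 CPM in KO and 187 ± 10.1 CPM in WT (log2 fold change -0.39, edgeR adjusted p = 0.295). Epas1, which encodes HIF-2alpha, was at 9.27, 11.01, 8.27 and 7.22 CPM in KO mice 1 to 4, against 4.50, 3.07, 5.47 and 5.31 CPM in WT mice 1 to 4. Each KO mouse was above each WT mouse, for 1 of the 13 regulators and for 2.89% of all genes tested. Epas1 did not pass over all genes (edgeR adjusted p = 0.392). Hif1a was at 102 ± 12.3 CPM in KO and 119 ± 14.9 CPM in WT. Of 12 other known HIF targets 9 were tested and 0 passed, their median log2 fold change being -0.13 and the smallest p that of Higd1a (edgeR adjusted p = 0.699).

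Among the 8 libraries the members did not move as a block. Within the genotypes, the closest pair was Aldoa and Ldha, whose deviations from their group means had a Pearson r of 0.896 over 8 libraries, and Hk2 ran closest to Pgk1 at 0.873 and Pkm at 0.852. Some pairs with Pgam1, which had few counts, ran opposite, at -0.889 with Aldoa, -0.876 with Gpi1, -0.727 with Ldha and -0.556 with Pfkl. Its other pairs did not, at 0.459 with Pgk1, 0.161 with Pkm, 0.0641 with Hk1 and -0.0240 with Hk2. These are descriptions over libraries that share depth and scaling. The genes outside the chain whose log2 CPM ran most like the mean of the members were Klf10 (r = 0.963), Exoc5 (r = 0.96) and Actn4 (r = 0.952), out of 8342 looked at over the 8 libraries. None of the 3 passed between KO and WT, with edgeR adjusted p between 0.974 and 0.997.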

How the data were processed

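RNA of sorted cells was extracted with a Qiagen micro kit, amplified with the Nugen Ovation V2 kit and sequenced on a NextSeq 500, per the labels' protocols. The deposited files hold whole-number counts per gene symbol, not normalized, and the submitters' processing notes name STAR 2.4.0d-2, htseq-count 0.6.1galaxy1 and mm10. The sources used here do not give the annotation, the use of strand or the handling of reads with several places of origin. No row lacked a gene name.

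Counts were tested on genotype over all 8 libraries in R 4.3.3 with edgeR 4.0.16 (TMM scaling, quasi-likelihood test, Benjamini-Hochberg over 11498 genes, threshold 0.05). Genes entered with filterByExpr (minimum count 10, minimum total 15). DESeq2 1.42.0 and limma voom 3.58.1 were alternatives. Single values had exact two-sided permutation tests. The fit was tested on simulated data. Levels per kilobase used exon unions of GENCODE M21, which may not be the annotation the authors counted with. Promoters came from RefSeq (GRCm38.p6). Library totals ran from 3594315 to 14872493 counts. Without molecular identifiers, floors (3 counts) cover counting error only. Each library is 1 mouse. No same-group pair of libraries agreed within sampling noise (smallest chi-square per degree of freedom 11.4 over 12 pairs).

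The members and gene lists were chosen with earlier results of these data known. Named genes were all 10 members, each tested other isozyme, of each other list the genes called or, with none, the gene with the smallest p, and the 3 genes most like the mean of the members. Epas1, Mycn, Hif1a, Pf4, Gp6 and Lyz2, and the Ldha share, were added after their values were seen. Some genes of the lists are not reported here by name.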

Additional observations from a re-analysis of the deposited data

Results flagged for a closer look

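In 3 of 52 groups of 4 libraries looked at, 1 library stood apart from the other 3 of its genotype, by a gap over range above Dixon's 95% critical value. All 3 were KO mouse 1, and chance alone sets apart about 1 in 20 groups. Hk3 was at 2.28 CPM in KO mouse 1 and at 7.78 to 8.80 CPM in the other KO mice. Gapdhs, the form known from sperm, was at 0.428 CPM in KO mouse 1 and at 2.07 to 2.40 CPM in the other KO mice. Eno2, known from neurons, was at 8.13 CPM in KO mouse 1 and at 1.41 to 2.41 CPM in the other KO mice.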

How the results depend on the processing

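Over the 16 alternatives, the log2 fold change of Ldha ran from 0.30 to 0.47 and those of Hk1, Hk2 and Pkm stayed below 0. Without a filter on low counts 198 genes were called, 1 member among them (Ldha, 0.39, edgeR adjusted p = 0.0237) and 1 regulator (Max, edgeR adjusted p = 0.0473). DESeq2 called 154 genes and an adjusted p threshold of 0.1 gave 126, against 67. Leaving out 1 mouse gave 35 to 70 calls: 44 without KO mouse 4, 44 without WT mouse 2 and 35 without WT mouse 3, with 0 members each time. The median of the members was -0.0397 with a filter of 5 CPM in 4 libraries and -0.0775 with counts thinned to 3594315, where Pgk1 was at -0.0775, and ran from -0.0934 to 0.0368 with 1 mouse left out. Directions also turned with 1 mouse left out for Aldoa (-0.291 to 0.00216), Gpi1 (-0.0932 to 0.166), Pfkl (-0.0719 to 0.338), Pgam1 (-0.172 to 0.289) and Pgk1 (-0.0934 to 0.171). The Hk2 share, KO minus WT, was -0.61 percentage points with the longest transcript as length and -2.25 to 3.69 with 1 mouse left out, and the Aldoa share -2.15 to 3.84. By level per kilobase, 2 members (Pkm and Pgk1) changed rank with the longest transcript, and 2 (Pgk1 and Aldoa) with windows not shared with other genes, an alternative chosen after seeing the data. The cause was not tested.

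With the mouse number as a replicate block 57 genes were called and 0 members. Libraries of the same number had correlations of deviations between -0.0917 and -0.0089, and 0 of 4 pairs correlated best with their own number. The sample titles give only a mouse number, and 4 pairs cannot settle whether mice of the same number were matched.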
